A study of Homo sapiens with 4 samples.

Results

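On the short arm of chromosome 5, 9 genes follow each other from TTC33 to OXCT1, and they are described here in SK-N-BE(2), a MYCN-amplified human neuroblastoma cell line. Per the series' design text the line was transfected with a control short hairpin RNA (shControl, 2 libraries) or with one directed at CDK5RAP3 (shCDK5RAP3, 2 libraries). All 4 libraries come from this 1 line, and its untransfected parent is not analysed here. No source used here gives the sequence of a hairpin or says how many there were. The 9 genes, of 64252 rows in the count table, were chosen by their place around C7 and RPL37, and the place itself was chosen because both of those genes were low in the shCDK5RAP3 libraries. The values of C7 and RPL37 are therefore given as a description with no test, while the 7 others were taken for their position. The question is whether the low values of C7 and RPL37 belong to these genes or run through the region around them.

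The products of C7 and C6 work together, and those of the other 7 genes serve other processes. C7 and C6 encode components of the membrane attack complex, the pore that the complement system assembles on a target membrane after C5 has been cleaved. RPL37 encodes a small protein of the large ribosomal subunit, needed in every cell. PRKAA1 encodes a catalytic subunit of AMPK, the kinase that senses low cellular energy, and OXCT1 the mitochondrial enzyme that lets tissues outside the liver burn ketone bodies. PTGER4 encodes the EP4 receptor for prostaglandin E2, CARD6 a caspase-recruitment-domain protein, PLCXD3 a protein with a phospholipase C-like domain, and TTC33 a protein with tetratricopeptide repeats.

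In GRCh38 the 9 genes span chromosome 5 from 40512333 to 41870519, or 1.36 Mb. RPL37 (ENSG00000145592, 40825262 to 40835335) is read from the minus strand and C7 (ENSG00000112936, 40909252 to 40982939) from the plus strand, so they point away from each other across 73916 bases, and CARD6 lies between them. PTGER4 (plus strand) lies inside the span of TTC33 (minus strand), and no source used here states the strand setting of the counting, so reads of the pair may not be fully separable.

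The 300 bases around the start of C7 are shown because C7 had the lowest log2 change of the 8 neighbours that passed the filter on low counts. They are RefSeq sequence of the plus strand at chr5:40909247-40909546 (GRCh38.p14), 250 bases before to 50 from the RefSeq start at 40909497. That start lies downstream of the annotated gene start at 40909252, so nearly all of the window is inside the annotated gene. The window has a match to AGATAA, a form of the core bound by GATA factors, shown in capitals. Other forms of this core were not searched, and TGATAA, also in the window, is left in small letters.
C7 promoter: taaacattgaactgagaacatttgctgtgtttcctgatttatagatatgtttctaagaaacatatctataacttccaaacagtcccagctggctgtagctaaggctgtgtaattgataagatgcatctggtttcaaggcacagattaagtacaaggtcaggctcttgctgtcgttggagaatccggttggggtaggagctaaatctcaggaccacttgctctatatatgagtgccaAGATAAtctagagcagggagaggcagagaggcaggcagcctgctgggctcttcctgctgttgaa
Searched on both strands, AGATAA occurs in 10.3% of 35116 RefSeq promoters of this length, and among the neighbours also at CARD6 and at 1 of the C6 starts. The general E-box CANNTG, which does not overlap the AGATAA match here, occurs 4 times in the C7 window and in 68.7% of promoters. The E-box form CACGTG, the preferred site of MYC proteins, was found in none of the promoters of the 8 neighbours with an entry and in 7.26% of all promoters. These are matches of letters and not sites of binding. The windows differed in base composition: C7 (44.3% G or C), CARD6 (41.3%), both starts of C6 (30.3% and 37.7%) and the downstream start of OXCT1 (36.3%) lie below the 58.7% median of all promoters, whereas PTGER4 (72.0%), TTC33 (63.0%), PRKAA1 (77.0%) and the upstream start of OXCT1 (68.7%) lie above it, and PLCXD3 (57.7%) is close to it.

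A stretch of the RPL37 coding sequence is shown because it holds a word that an earlier scan of these same libraries had linked, in 3′ UTRs, to low values. The words AACACCT and ACACCTA overlap in RPL37 as the 8 bases in capitals, at codon 82 of 97, on the minus strand at positions 40832545 to 40832552 of chromosome 5.
RPL37 coding site: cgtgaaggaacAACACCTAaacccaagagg
The 8-base word is in 5 of the 6 annotated RPL37 transcripts. None of the 7 annotated C7 transcripts holds AACACCT or ACACCTA, and neither do the longest-UTR coding transcripts of the other 7 genes. Of 13605 tested coding genes 303, or 2.23%, hold AACACCTA in the coding sequence, of which 108 fell and 44 rose (edgeR adjusted p under 0.05), and 299 hold it in the 3′ UTR, of which 155 fell and 32 rose. Of all 13605 genes 26.5% fell, against 35.6% of those with the word in the coding sequence and 51.8% of those with it in the 3′ UTR. The words were picked with the changes of these libraries in view, so these shares are not independent evidence. Genes with the word were not matched to the others for the length of the coding sequence or 3′ UTR. The part of the word in the RPL37 value was not tested.

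Depth was even, with 28653689 to 30138393 counts per library, and CDK5RAP3 itself (ENSG00000108465) fell to 62.1% of control, from 2529 and 2866 counts to 1669 and 1689 (log2 change -0.69 ± 0.08 SE, edgeR adjusted p = 0.000163). The loss of the target was thus partial. The labels do not call the replicates separate cultures, so p-values measure the spread between these libraries only, and in bulk RNA fewer cells of a type and less RNA per cell cannot be told apart. Neuroblastoma identity genes were present in every library, with a summed level of 8739 and 9277 CPM (counts scaled to a common depth by library size and TMM factors) in shControl and 5292 and 5458 in shCDK5RAP3, and 9 of the 10 fell (21.8% of all 18775 tested genes fell and 19.7% rose).

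C7, best known as a plasma protein, was readily detected in these cells. Its counts were 6545 and 6348 in shControl and 1618 and 1648 in shCDK5RAP3. The replicates nearly coincided, and both shCDK5RAP3 libraries lay far below both controls. In CPM this was 222 ± 5.57 against 56.1 ± 0.682 (SD, n = 2 each), or 25.3% of control, a log2 change of -1.98 with a standard error of 0.06. The liver and connective tissue are textbook sources of C7. Of 6 hepatocyte markers TTR, SERPINA1 and FGB were at 0 in every library and the summed level was at most 1.11 CPM. The 12 fibroblast markers summed to 1146 and 1130 CPM in shControl and 927 and 907 in shCDK5RAP3, with FAP at 0. Of the 11 tested 5 fell and 3 rose, against 21.8% and 19.7% over all tested genes. The sum hides large changes both ways. PDGFRB, a receptor for platelet-derived growth factor, fell from 6597 and 5878 counts to 1342 and 1162, or 20.0% of control (edgeR adjusted p = 1.26e-06). The matrix proteoglycan genes DCN (30.2% of control) and LUM (43.3%) and the receptor gene PDGFRA (45.5%) fell as well. The contractile genes ACTA2 (4.16-fold) and TAGLN (4.37-fold) rose. These 6 passed under every alternative in which they were tested, whereas COL1A1 (-0.28) and THY1 (0.22) lost their calls under several, at edgeR or DESeq2 adjusted p of 0.057 to 0.3 and 0.0629 to 0.184. The part of fibroblast-type expression in the C7 value was not tested.

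RPL37 had 21436 and 21486 counts in shControl and 6416 and 6602 in shCDK5RAP3. The libraries of a group nearly coincided, and again the groups were far apart. The levels were 739 ± 1.34 and 224 ± 1.11 CPM (SD, n = 2 each), or 30.3% of control, a log2 change of -1.72 ± 0.06 SE. RPL37 has processed pseudogene copies elsewhere in the genome, 3 of which, of 11 rows, had any counts. RPL37P6 on chromosome 8 had 35 and 20 counts in shControl and 9 and 9 in shCDK5RAP3, and RPL37P2 on chromosome 11 had 32 and 26 against 5 and 12. Together the pseudogene rows held 0.242% to 0.379% as many counts as RPL37 in a library. Both named rows were lower in the knockdown libraries, as RPL37 was, and rows of near-identical sequence can share reads and are uncertain.

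The pair did not move by quite the same factor. For every 100 RPL37 counts there were 30.5 and 29.5 C7 counts in shControl and 25.2 and 25.0 in shCDK5RAP3, a mean log2 ratio lower by 0.26 after knockdown. That ratio was lower in both shCDK5RAP3 libraries than in both controls. Both genes were chosen for their low values, and the ratio was not tested. An exact permutation test of 2 against 2 libraries cannot go below p = 0.333. Among all 18775 tested genes, 302 (1.61%) were called lower with a log2 change as low as that of C7, itself included, and 443 (2.36%) with one as low as that of RPL37.

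**Figure D1:**
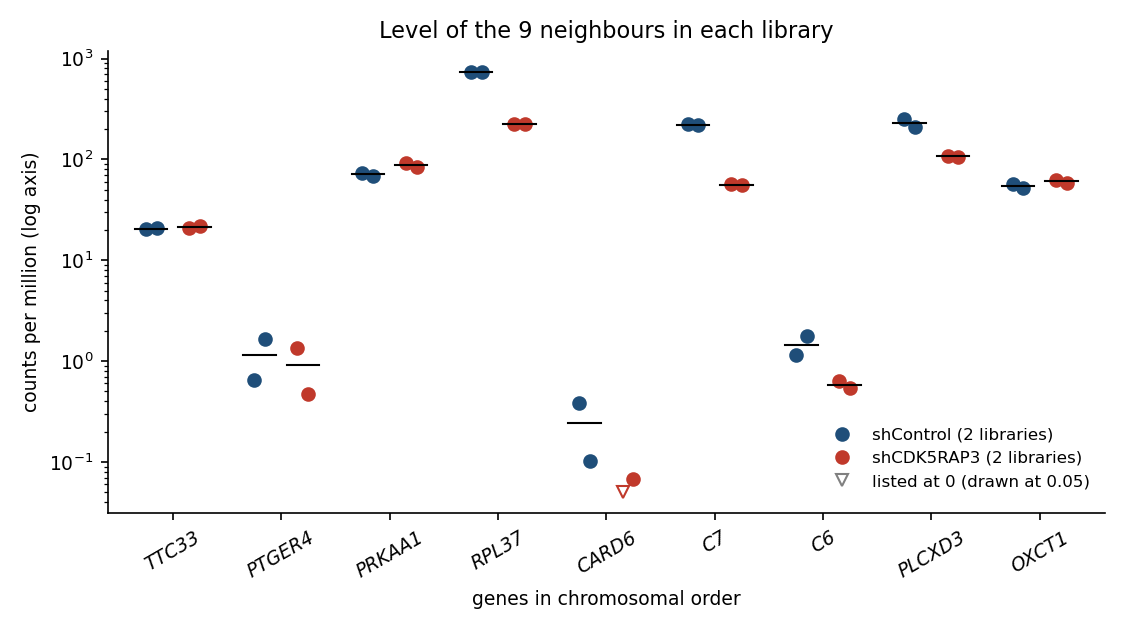
Level in CPM (log axis) of the 9 neighbours in chromosomal order, 1 point per library and a black line at each group mean; the shCDK5RAP3 mean of CARD6 lies under the axis and is not drawn. RPL37, C7, C6 and PLCXD3 are lower in both shCDK5RAP3 libraries, whereas TTC33, PRKAA1 and OXCT1 are slightly higher and PTGER4 overlaps.

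CARD6 separates RPL37 from C7 and was almost silent. It had 11 and 3 counts in shControl and 0 and 2 in shCDK5RAP3. Only 1 library exceeded the 3 counts that a count of 0 allows. The gene also did not pass the filter on low counts, and no change could be read at this depth. Its start lies 5848 bases from RPL37, and its end 49076 bases from C7. An expressed gene at 224 to 739 CPM and one at 56.1 to 222 CPM thus stood on either side of a gene whose highest library had 0.38 CPM.

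On the far side of C7 the next expressed neighbours were lower too. C6, whose product joins the membrane attack complex just before that of C7, had 33 and 52 counts in shControl and 18 and 16 in shCDK5RAP3, with no overlap between the groups. The level of 1.46 ± 0.458 CPM in shControl and 0.585 ± 0.0633 CPM in shCDK5RAP3 (SD, n = 2 each) gave a fall to 40.1% of control, with a log2 change of -1.32 ± 0.40 SE and an edgeR adjusted p of 0.0264. The count is small, and the call was lost with DESeq2 (adjusted p = 0.124), without a filter on low counts (edgeR adjusted p = 0.0919) and without shControl replicate 2 (0.209), shCDK5RAP3 replicate 1 (0.091) or shCDK5RAP3 replicate 2 (0.146).

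PLCXD3 gave the firmest change among the genes chosen by position. It had 7309 and 6143 counts in shControl and 3095 and 3117 in shCDK5RAP3. The controls differed from each other by more than the knockdown libraries did, yet both stood above them. PLCXD3 (ENSG00000182836, minus strand, 41306954 to 41510628) fell to 46.1% of control. Its level was 232 ± 29.2 CPM in shControl and 107 ± 2.15 CPM in shCDK5RAP3 (SD, n = 2 each), the log2 change was -1.12 ± 0.09 SE and the edgeR adjusted p 2.27e-05. It passed under every alternative that was run.

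OXCT1, the last of the row, did not share this direction. Its counts were 1659 and 1531 in shControl and 1794 and 1746 in shCDK5RAP3, so the knockdown libraries lay above the controls by a little. The log2 change of 0.15 ± 0.08 SE did not pass (edgeR adjusted p = 0.164). OXCT1-AS1, a non-coding transcript that overlaps the start of OXCT1 on the other strand, had 23 and 47 counts against 19 and 7 (log2 change -1.42 ± 0.57 SE, adjusted p = 0.0738 with edgeR); it passed with a replicate block (0.0454) and without shControl replicate 1 (0.0253), and reads of the overlap may not be separable from OXCT1.

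On the other side of RPL37 no tested neighbour fell. PRKAA1 (ENSG00000132356), on the same strand with its start 26887 bases from the 3′ end of RPL37, had 2147 and 1985 counts in shControl and 2628 and 2487 in shCDK5RAP3. Both knockdown libraries were higher, and PRKAA1 rose 1.24-fold. The level was 71.2 ± 4.19 CPM in shControl and 88.0 ± 5.64 CPM in shCDK5RAP3 (SD, n = 2 each), a log2 change of 0.31 ± 0.08 SE with an edgeR adjusted p of 0.011. The call was lost without shCDK5RAP3 replicate 1 (edgeR adjusted p = 0.13) or replicate 2 (0.0621), and without a filter on low counts (0.0889). TTC33 had 589 and 606 counts against 602 and 650, a log2 change of 0.06 ± 0.10 SE (edgeR adjusted p = 0.652). PTGER4 had 19 and 48 counts against 39 and 14, so its libraries overlapped and its log2 change of -0.33 had a standard error of 0.58; its sign turned when shControl replicate 2 (0.48) or shCDK5RAP3 replicate 2 (0.24) was left out.

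Of the 9 genes 8 passed the filter on low counts, CARD6 being the exception. Of the 7 chosen by position 6 were tested: C6 and PLCXD3 fell, PRKAA1 rose, and TTC33, PTGER4 and OXCT1 did not pass. Over all tested genes 41.5% passed, 21.8% falling and 19.7% rising, so with 6 genes 2 falls and 1 rise are near the background. The median log2 change of these 6 was -0.13, against -0.00 over all tested genes. Both knockdown libraries were below both controls for 2 of the 6 and above them for 3, where the background is 36.4% and 35.0%. With C7 and RPL37 added, 4 of 8 tested were called lower, a count that the choice of the place partly fixes. From RPL37 to PLCXD3 each of the 4 tested genes was lower in both knockdown libraries, and CARD6, too low to test, had 11 and 3 counts against 0 and 2. PRKAA1 on one side of this stretch and OXCT1 on the other were higher in both, though OXCT1 did not pass. OXCT1-AS1, which overlaps the start of OXCT1, was lower in both (-1.42) and did not pass in the main fit. RPL37 and C7 were chosen for their low values, and the stretch itself was seen after the values and was not tested.

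Other annotated rows of the interval added little. Of 17 rows in all, 8 are not among the 9 genes, and 5 of those had any counts. SNORD72, a small nucleolar RNA within the RPL37 span, had 1 and 2 counts against 2 and 3, MROH2B, between C7 and C6, had 0 and 4 against 0 and 0, and AC114967.1, a pseudogene within C7, had 1 and 2 against 0 and 0.

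**Figure D2:**
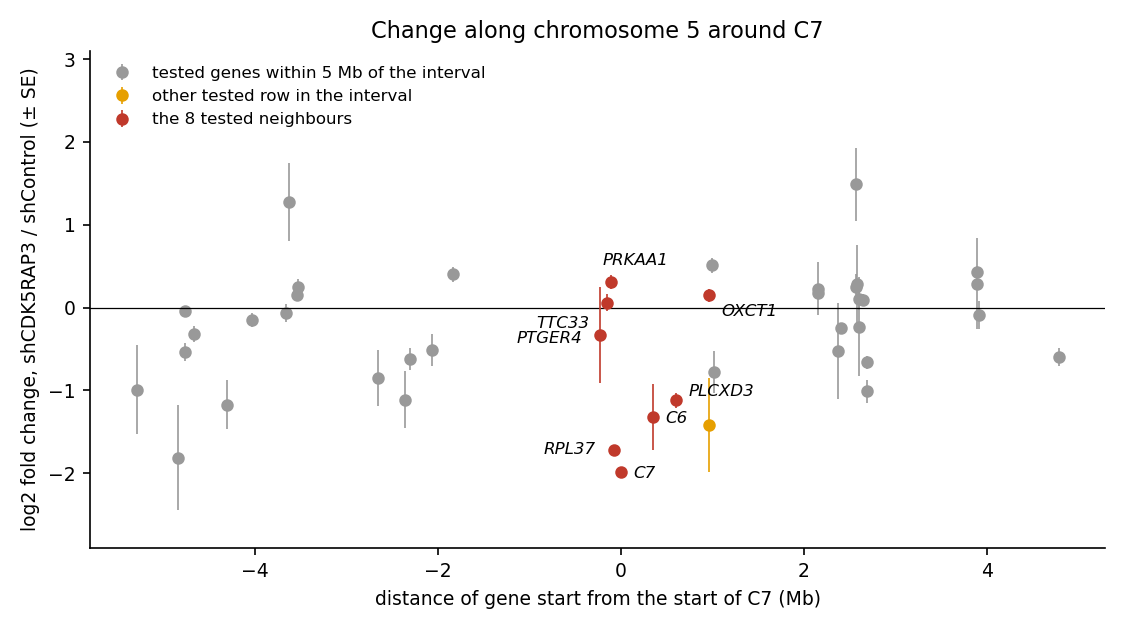
Log2 fold change (± SE) of each tested gene against the distance of its start from that of C7 in Mb, for the 8 tested neighbours, the other tested row of the interval and the 34 tested genes within 5 Mb on either side. The 4 tested genes from RPL37 (-1.72) to PLCXD3 (-1.12) all lie below 0, with PRKAA1 (0.31) and OXCT1 (0.15) above 0 on either side. RPL37 and C7 were chosen for their low values, so this run is partly fixed by the choice. OXCT1 did not pass, and OXCT1-AS1, the other tested row, lies at -1.42 beside it and did not pass in the main fit. Runs of several genes below 0 also occur in the flank on the side of TTC33.

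The wider surroundings held changes in both directions. Within 5 Mb on either side 34 genes were tested, of which 11 fell, 4 rose and 19 did not pass, with a median log2 change of -0.12. This is 32.4% lower and 11.8% higher, against 21.8% and 19.7% over all tested genes and 22.4% and 18.8% over the 826 tested genes of chromosome 5. On the side of TTC33 6 of 16 fell and 1 rose, and on the side of OXCT1 5 of 18 fell and 3 rose. None was tested as a set. The largest falls were those of UGT3A2 (-1.81, from 14 and 18 counts), a UDP-glycosyltransferase gene, the glutamate transporter SLC1A3 (-1.17) and LIFR-AS1 (-1.11), antisense to a cytokine receptor gene. All 3 lost their calls under several alternatives, without shCDK5RAP3 replicate 2 among them (edgeR adjusted p = 0.107, 0.132 and 0.0981). The largest rises were those of the non-coding AC114956.3 (1.49, from 9 and 14 counts), C5orf51 (0.51) and the mitochondrial ribosomal protein gene MRPS30 (0.43). C5orf51 did not pass without shCDK5RAP3 replicate 2 (edgeR adjusted p = 0.0559) or without a filter (0.056), and AC114956.3 did not under either of these, with DESeq2 or without shControl replicate 1 or shCDK5RAP3 replicate 1 (adjusted p = 0.0641 to 0.139). None of these 34 genes had a change as low as that of C7, and 1, UGT3A2, had one below the -1.72 of RPL37.

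Just outside the last member, C5orf51 had 2127 and 1796 counts in shControl and 2759 and 2838 in shCDK5RAP3, while FBXO4, which encodes an F-box protein, had 113 and 88 against 63 and 54. Just inside, OXCT1 had a log2 change of 0.15. At the other end DAB2, the nearest coding gene outside, was at 0 in all 4 libraries, and the nearest tested gene was RICTOR, a subunit of mTORC2, with 945 and 853 counts against 1145 and 1234. Just inside that end, TTC33 had a log2 change of 0.06. On the OXCT1 side the nearest genes thus lay in both directions, with FBXO4 at -0.78. The FBXO4 call was lost with DESeq2 (adjusted p = 0.137), without a filter (edgeR adjusted p = 0.113) and with some libraries left out. On the TTC33 side TTC33 was level and RICTOR, which ends at 39074408, was higher (0.40). The RICTOR call was lost without a filter (edgeR adjusted p = 0.059) or without shCDK5RAP3 replicate 2. The next tested genes outward, OSMR (-0.51, not passing), LIFR-AS1 (-1.11) and LIFR (-0.62), were lower.

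**Figure D3:**
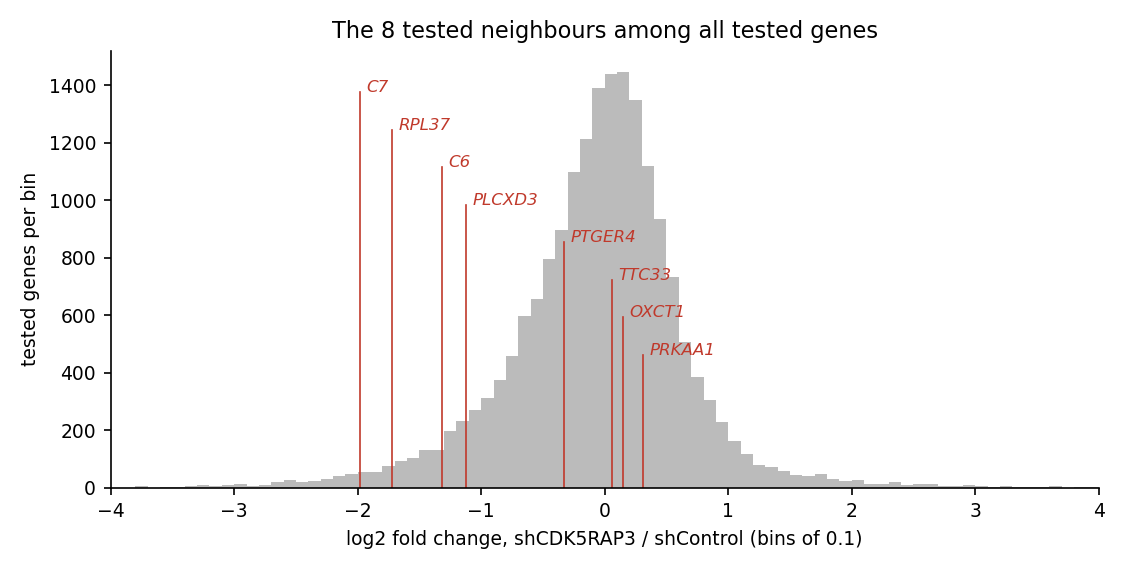
Number of tested genes per bin of 0.1 in log2 fold change, with a red line at each of the 8 tested neighbours (line height has no meaning). C7 (-1.98) and RPL37 (-1.72) lie in the lower tail, C6 (-1.32) and PLCXD3 (-1.12) on its slope, and the other 4 between -0.33 and 0.31.

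Each gene was next set beside genes of its own pathway, from lists drawn up with earlier results of these data known. In terminal complement, C5 and C6 fell beside the low C7, while the later components were near 0. Of 12 genes of the membrane attack complex and its regulators 8 were tested. Besides C7, which set the choice, 5 fell, 1 rose and 1 did not pass, with a median log2 change of these 7 of -0.69, against -0.00 over all tested genes, of which 21.8% fell and 19.7% rose. Counting C7 as well, 6 of 8 were called lower, against 5 of 8 with DESeq2 and 4 of 9 without a filter on low counts. Fewer were called lower with some libraries left out. C5, the component that starts the complex, had 401 and 417 counts against 233 and 274 and fell (-0.69, edgeR adjusted p = 0.00402), a call lost without shCDK5RAP3 replicate 1 (0.0501). C8A, C8B and C9, whose products complete the pore, were at 0 in all 4 libraries, and C8G had 2 to 9 counts. The transcripts present thus cover C5, C6 and C7 but not the later components C8A, C8B and C9.

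The regulators that keep the pore off host cells went both ways. CD55, which disables the convertases, fell from 669 and 722 counts to 300 and 294 (log2 change -1.23), and CD59, which blocks C9, from 2262 and 2155 to 1594 and 1770 (-0.40); CD59 did not pass when shCDK5RAP3 replicate 1 was left out (edgeR adjusted p = 0.0561). VTN, whose product binds the forming complex, had 11 and 23 counts against 2 and 0 and fell (-3.93), a call lost without a filter on low counts (edgeR adjusted p = 0.103) and without shCDK5RAP3 replicate 2 (0.106). With so few counts its log2 change ran from -2.99 without shCDK5RAP3 replicate 2 to -7.10 without replicate 1. CLU, which encodes clusterin and also binds it, rose from 1061 and 1081 to 2376 and 2423 (1.16), and CD46 (0.10) did not pass. Of 16 early complement genes 6 were tested: SERPING1 (-1.79) and C1R (-1.29) fell, MASP2 (0.67) rose, and C1S, C4A and C4B did not pass, the last pair being near-identical copies. Over all tested genes 21.8% fell and 19.7% rose, so 2 falls and 1 rise among 6 genes are near the background. The call of MASP2 was lost with DESeq2 (adjusted p = 0.108), without a filter (edgeR adjusted p = 0.121) and without shControl replicate 2 (0.135), shCDK5RAP3 replicate 1 (0.17) or shCDK5RAP3 replicate 2 (0.0906).

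RPL37 was the lowest of the ribosomal protein genes set beside it. Of 10 large-subunit genes 6 rose, against 19.7% of all tested genes, and the median of the 9 other than RPL37 was 0.20. The count of rises was not stable: it was 1, RPL37A, without a filter on low counts, 4 without shControl replicate 1 and 3 without either shCDK5RAP3 library, where RPL19 (0.22), RPL26 (0.20) and RPL31 (0.18) lost their calls. RPL8 (0.57), RPL35 (0.66) and RPL37A (0.35), a different protein despite its name, had the largest rises. RPL23A had a change of -0.16 that did not pass (edgeR adjusted p = 0.0555), and RPL4 (0.01) and RPL39 (0.15) did not pass either. RPL37A had 28771 and 28523 counts in shControl and 35465 and 37878 in shCDK5RAP3, opposite in direction to RPL37. These genes also have many pseudogenes.

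The partners of PRKAA1 in AMPK moved in both directions. Of 11 AMPK subunit and upstream kinase genes 10 were tested, 4 falling and 2 rising, PRKAA1 among the latter, with a median of -0.15. Over all tested genes 21.8% fell and 19.7% rose, and with a library left out 3 to 4 of the 10 fell and 0 to 2 rose. The regulatory subunit gene PRKAB2 fell from 1171 and 1119 counts to 446 and 402 (-1.44, edgeR adjusted p = 1.7e-05), and PRKAG1 by 0.35, a call lost when shControl replicate 2 (edgeR adjusted p = 0.0757), shCDK5RAP3 replicate 1 (0.155) or shCDK5RAP3 replicate 2 (0.0813) was left out and without a filter (0.0961). The upstream kinase gene STK11 rose (0.37), a call lost without shCDK5RAP3 replicate 2 (edgeR adjusted p = 0.0974) and without a filter (0.0674). CAMKK2 (-0.45) and STRADA (-0.46) fell, and the other catalytic subunit gene, PRKAA2, at 65 and 50 counts against 28 and 38, did not pass (-0.80, edgeR adjusted p = 0.0708).

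**Figure D4:**
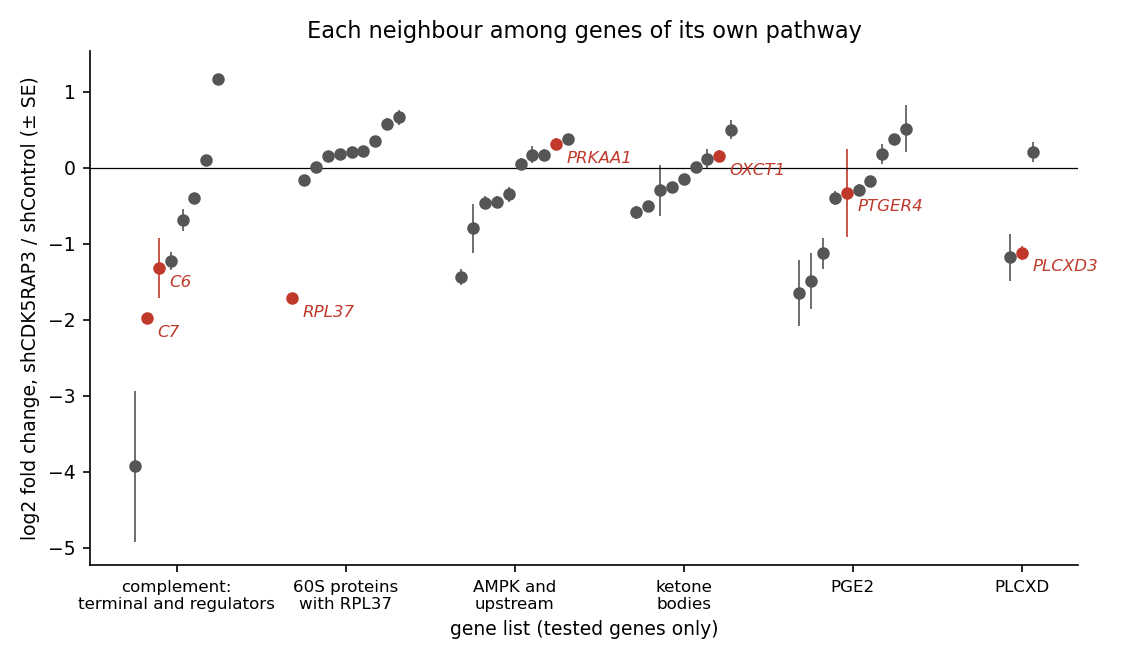
Log2 fold change (± SE) of the tested genes of 6 lists, with the neighbours of C7 and RPL37 in red and the other genes in grey. RPL37 (-1.72) lies below the other 9 ribosomal protein genes, which run from -0.16 to 0.66, whereas C7 (-1.98) and C6 (-1.32) have other low genes beside them.

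Around OXCT1, 3 of 9 tested ketone body genes fell and 1 rose, with a median of -0.15, near the 21.8% and 19.7% over all tested genes for so few genes. ACAT1 (-0.51), which acts in the same mitochondrial pathway, BDH2 (-0.59) and HMGCS1 (-0.25, not passing when shCDK5RAP3 replicate 1 or 2 was left out, with an edgeR adjusted p of 0.156 and 0.112, nor without a filter, at 0.071) fell, and BDH1 (0.50) rose with a call lost without shCDK5RAP3 replicate 1 (edgeR adjusted p = 0.0552) or replicate 2 (0.103). Beside PTGER4, the most abundant prostaglandin E2 receptor transcript by count was PTGER2, with 3153 and 3225 counts against 2861 and 2826 (-0.17, edgeR adjusted p = 0.0613, passing by library size only at 0.038 and with a replicate block at 0.015). PTGER3 (-1.13) and PTGER1 (-1.65, from 47 and 38 counts to 9 and 18) fell. The call of PTGER1 was lost with DESeq2 (adjusted p = 0.0578), without a filter (edgeR adjusted p = 0.082) and without shControl replicate 1 (0.0646) or shCDK5RAP3 replicate 1 (0.0869). Of the 10 tested genes of prostaglandin E2 synthesis and reception 5 fell and 1 rose, against 21.8% and 19.7% over all tested genes. The falls numbered 1 without a filter and 2 to 5 with a library left out. PLCXD2, the relative of PLCXD3 on another chromosome, had 67 and 53 counts against 27 and 26 (-1.18, edgeR adjusted p = 0.0146, lost with DESeq2 at 0.0863, without a filter at 0.0509 and when shControl replicate 1, shCDK5RAP3 replicate 1 or shCDK5RAP3 replicate 2 was left out, at 0.086, 0.0632 and 0.0923), and PLCXD1 (0.21) did not pass. For CARD6, 9 genes of CARD and NOD signalling were tested, with a median log2 change of 0.18, against -0.00 over all tested genes. CARD9 (from 585 and 686 counts to 338 and 297), CARD10 (-1.42) and NOD1 (-0.60) fell, 0 rose and 6 did not pass. Over all tested genes 21.8% fell and 19.7% rose, so 3 falls among 9 genes are near the background. The CARD10 call was lost without a filter (edgeR adjusted p = 0.0843) and with DESeq2 (adjusted p = 0.0949). It was also lost without shCDK5RAP3 replicate 1 (log2 change -1.53) or 2 (-1.31) and without shControl replicate 2 (-1.05). NOD1 did not pass without shCDK5RAP3 replicate 1 (-0.57) or 2 (-0.63).

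Genes elsewhere in the genome matched C7 and RPL37 more closely than they matched each other. Likeness was taken as the Euclidean distance between log2 CPM values, centred per gene, over the 4 libraries, among 13111 genes with a mean log2 CPM of at least 1. RPL37 was 0.26 from C7 and ranked 56 in likeness to it, and C7 ranked 117 in likeness to RPL37. Nearest to C7 were S100A4 on chromosome 1 (distance 0.03, with 273, 260, 64 and 66 counts), FAXDC2 on chromosome 5 (0.06), TIMP3 on chromosome 22, MSN on chromosome X and SCN3A on chromosome 2 (0.08 each). Nearest to RPL37 were CMTM3 on chromosome 16 (0.04, with 1959, 1960, 584 and 620 counts), SH3BGRL on chromosome X (0.04), FSTL1 on chromosome 3 (0.07), AGAP2 on chromosome 12 and PEX19 on chromosome 1 (0.08 each). With 4 libraries in 2 groups, such likeness is mostly an equal size of change and says nothing of shared function.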

How the data were processed

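Total RNA of SK-N-BE(2) cells (TRIzol) was prepared with an Illumina TruSeq kit as 4 libraries, per the labels' protocols. The authors deposited whole-number read counts per Ensembl gene, not scaled between libraries. HISAT2 2.2.0, StringTie and build hg38 are named in the submitters' processing notes without role or order; no source used here states the annotation release or the strand and multi-mapping rules. Of 64252 rows, 56591 matched GENCODE 29 (GRCh38), which gave symbols and positions.

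Tests were fitted on the whole table with edgeR 4.0.16 in R 4.3.3 (TMM, default filter by group, quasi-likelihood F test, Benjamini-Hochberg over 18775 genes, threshold 0.05, no replicate block), and checked on simulated data. Log2 changes compare shCDK5RAP3 with shControl, and a standard error is the log2 change over the square root of F. A count of 0 allows up to 3 counts (about 0.104 CPM), for counting error only. Named genes were the 9 neighbours, CDK5RAP3, other interval rows with counts, the 3 largest called changes each way and the nearest tested and coding genes in the flanks, RPL37 pseudogenes with a mean count of at least 10, list members with the largest change, and the 5 genes most like C7 and RPL37; other list members were named after their values were seen. The members and lists were chosen with earlier results of these data known. The alternatives were other scalings and filters, DESeq2 1.42.0, a robust fit, a replicate block, each library left out, and a 2 Mb flank. Other chromosome 5 parts and isoforms were not analysed here.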

Additional observations from a re-analysis of the deposited data

How the results depend on the processing

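C7 and RPL37 kept their direction under every alternative. C7 was at -2.01 by library size only and -1.95 with upper-quartile factors, and between -2.01 and -1.96 with a library left out; RPL37 was at -1.75 and -1.69, at -1.72 with DESeq2 size factors, at -1.73 without a filter and with DESeq2, and between -1.73 and -1.72 with a library left out. Of the 7 genes chosen by position, 1 fell and 0 rose without a filter, 1 fell with DESeq2, and 1 to 2 fell and 0 to 1 rose with a library left out, C6 and PRKAA1 being the calls lost. In the flanks, 4 fell and 1 rose without a filter, 7 fell with DESeq2, 6 fell in flanks of 2 Mb, and 3 to 10 fell and 1 to 5 rose with a library left out. Over all genes 7792 passed, 4488 without a filter, and 3752 to 7329 with a library left out, where the lone library of a group is assumed to vary like the other group. PTGER4 ran from -1.27 (without shCDK5RAP3 replicate 1) to 0.48 (without shControl replicate 2), with 0.24 without shCDK5RAP3 replicate 2. RPL4, at 0.01, turned to -0.02 by library size and without shControl replicate 1, -0.00 without a filter, and ran from -0.04 to 0.06 with a library left out. The causes were not tested. With the replicate number as a block 9150 genes passed and 7 flanking genes rose, with the same 2 falls and 1 rise among the neighbours; equal numbers share only a number (correlation of deviations 0.0534). At this depth CARD6 and the small RNAs were too few to compare.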
